A study of Mus musculus with 55 samples.

Results

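The 25-week comparison of βEedKO with Eed heterozygous islets rests on 4 bulk RNA-seq libraries, chosen by their labels alone. They are heterozygous replicates 1 and 2 and βEedKO replicates 2 and 3, out of 16 bulk islet libraries and 55 samples in the series. All were whole islets of C57B6/J males, hand-picked after collagenase digestion and kept in culture before RNA was made. The βEedKO animals (labelled Eed -/-) carried floxed Eed alleles and a Cre transgene driven by the rat insulin promoter (RIP-Cre), which is active in β cells, so the other cells of an islet keep Eed. The label of the control animals says only heterozygous, and whether they carried Cre is not given in the sources used here. The βEedKO mice of this age were overtly diabetic in the study, so the genotype and the diabetic state cannot be told apart. Each βEedKO library at 25 weeks pooled more animals than the other libraries, which came from single animals or small pools. Where a difference between groups is given as a p-value, it measures the spread between such libraries.

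Eed is a core subunit of Polycomb repressive complex 2 (PRC2), the complex that methylates lysine 27 of histone H3 (H3K27me3) and keeps developmental genes of other lineages silent. In β cells the silent set includes Hox genes and transcription factors of the nervous system, muscle and skeleton, many of which lie in bivalent chromatin, with active H3K4me3 and repressive H3K27me3 marks at the same start site. A mature β cell is known by the insulin genes, by transcription factors such as Pdx1, Nkx6-1 and Mafa, and by genes that couple glucose to secretion. It is also known by a set of disallowed genes that most tissues use and β cells keep low.

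Genes that rose from silence and β cell genes that fell stood at the far ends of the comparison, and the promoters of 4 of them are shown to let a reader see how the sequences at their starts differ. Slc32a1, which encodes the vesicular transporter of GABA and glycine, and Cck, which encodes the gut and brain peptide cholecystokinin, were silent in heterozygous islets and rose in βEedKO islets. Ucn3, which encodes the β cell peptide urocortin 3, and Ins1, an insulin gene, fell. The sequences below come from RefSeq on GRCm38.p6, 300 bases each from 250 before to 50 after the start, 5′ to 3′ on the strand of the gene, with each CG dinucleotide in capitals. Slc32a1 lies at chr2:158610508-158610807 (+), Cck at chr9:121495645-121495944 (-), Ucn3 at chr13:3945300-3945599 (-) and Ins1 at chr19:52264047-52264346 (+).
Slc32a1: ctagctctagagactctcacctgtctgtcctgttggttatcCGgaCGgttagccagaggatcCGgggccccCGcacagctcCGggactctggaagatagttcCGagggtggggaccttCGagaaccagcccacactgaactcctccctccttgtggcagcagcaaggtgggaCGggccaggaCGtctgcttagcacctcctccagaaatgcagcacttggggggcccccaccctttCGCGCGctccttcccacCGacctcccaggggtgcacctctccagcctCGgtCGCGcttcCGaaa
Cck: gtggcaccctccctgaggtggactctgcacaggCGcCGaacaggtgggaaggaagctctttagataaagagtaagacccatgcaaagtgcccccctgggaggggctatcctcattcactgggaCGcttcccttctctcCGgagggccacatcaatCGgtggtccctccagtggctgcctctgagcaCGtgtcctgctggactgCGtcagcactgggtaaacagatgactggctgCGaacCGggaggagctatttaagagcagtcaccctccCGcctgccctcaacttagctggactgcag
Ucn3: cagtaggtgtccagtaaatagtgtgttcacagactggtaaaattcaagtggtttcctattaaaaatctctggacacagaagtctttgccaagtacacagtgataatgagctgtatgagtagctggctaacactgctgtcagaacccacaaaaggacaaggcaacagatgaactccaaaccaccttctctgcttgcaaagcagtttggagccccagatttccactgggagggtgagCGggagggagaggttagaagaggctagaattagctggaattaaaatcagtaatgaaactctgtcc
Ins1: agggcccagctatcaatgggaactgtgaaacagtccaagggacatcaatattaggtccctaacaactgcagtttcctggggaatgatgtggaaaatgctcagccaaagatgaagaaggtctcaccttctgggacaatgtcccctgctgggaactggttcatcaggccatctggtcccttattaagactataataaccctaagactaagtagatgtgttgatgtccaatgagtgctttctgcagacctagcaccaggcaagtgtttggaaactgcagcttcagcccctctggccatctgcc

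The risen genes hold 17 and 10 CG dinucleotides in this window, and the fallen genes 1 and 0. In the same window at 18737 of the 18828 genes tested, read from the GRCm38 genome at the annotated starts, the median was 15. The 12 largest rises had a median of 13.5 (5 to 26), and the 12 largest falls a median of 3.5 (0 to 11). Over all genes that changed the order was not the same: the median was 14 in genes called higher and 18 in genes called lower. The letters TATAAA, on either strand, were found in 11.2% of the windows of genes called higher, in 6.65% of those called lower and in 9.97% of all windows. These counts describe the letters in the window and were not tested.

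Depth was similar in the 4 libraries, with 16433059 to 17308262 reads counted per library, or 16433059 and 16812934 in heterozygous replicates 1 and 2 and 17308262 and 16565560 in βEedKO replicates 2 and 3. Levels are given as CPM, the counts of a gene scaled to a common library total after TMM normalization, which sets libraries level from the bulk of their genes. A single library stood apart. The summed level of 15 acinar cell markers, the digestive enzymes of the exocrine pancreas and their regulators, was 503800 CPM in βEedKO replicate 2 and 15870 CPM in βEedKO replicate 3, against 42630 and 72520 CPM in the heterozygous libraries. In reads this was 38.3% and 2.37% of the counts of the βEedKO libraries, and 4.76% and 7.39% of those of the heterozygous ones. The heterozygous pair were alike across genes (Pearson's r of log2 CPM 0.986, 18828 genes, not independent), and the βEedKO pair less so (0.928). The count of calls, and which named genes keep theirs, is also given without this library.

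The targeted gene did not separate the groups. Eed (ENSMUSG00000030619.9, chromosome 7 from 89954654 to 89980983, GRCm38) had 16.3 and 16.9 CPM in heterozygous replicates 1 and 2, and 15.6 and 14.2 CPM in βEedKO replicates 2 and 3. The βEedKO values lay just below the heterozygous ones, by a log2 fold change of -0.16 ± 0.22 (SE, adjusted p = 0.722). Wild-type islets of the same age had 28.3, 22.0 and 19.3 CPM. The counts cover the whole gene, its undeleted exons and the other cells of the islet, so they do not check the deletion. No other core PRC2 subunit was called either. Of 11 PRC2 subunits and cofactors 1 was called, Phf1, a Polycomb-like cofactor, which fell from 147 and 162 CPM to 76.9 and 75.6 CPM (log2 fold change -1.02 ± 0.26, adjusted p = 0.0294). Of 19 PRC1 subunits, 1 fell, Kdm2b, which brings PRC1 to unmethylated CG-rich DNA, from 51.0 and 50.0 to 19.9 and 21.3 CPM (-1.29 ± 0.30, adjusted p = 0.0192). None of 10 H3K4 methylases and H3K27 demethylases was called in edgeR. Setd1a had the smallest p of these, at 27.0 and 27.0 CPM against 13.5 and 21.3 CPM (adjusted p = 0.213).

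Across the genome more genes rose than fell in βEedKO islets, and the risen genes were mostly those that heterozygous islets barely expressed. Of 18828 genes tested, 1574 (8.36%) were called at an adjusted p under 0.05 by edgeR's quasi-likelihood test with Benjamini-Hochberg adjustment. Of these 1018 (5.41% of those tested) were higher in βEedKO islets and 556 (2.95%) lower. The genes called higher had a median of 0.894 CPM in heterozygous islets, with quartiles of 0.111 and 3.54, and of 10.6 CPM in βEedKO islets, with quartiles of 5.10 and 22.5. The genes called lower started from a median of 72.3 CPM (29.2 and 139) and ended at 26.8 CPM (11.5 and 56.1). Their median log2 fold change was -1.31, against 3.55 for the genes called higher, or 3.47 with genes at 0 reads set to the bound that 3 reads allow. In 142 genes called higher (13.9%) no read was found in either heterozygous library, and 83 of these had none in 3 wild-type libraries either. Among all 18828 genes tested, 439 had no heterozygous read. Up to 3 heterozygous reads were found in 24.3% of genes called higher and in 5.48% of all genes tested. Genes without a heterozygous read pass the filter only through other groups and can only be called higher, so these counts are a description.

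**Figure D1:**
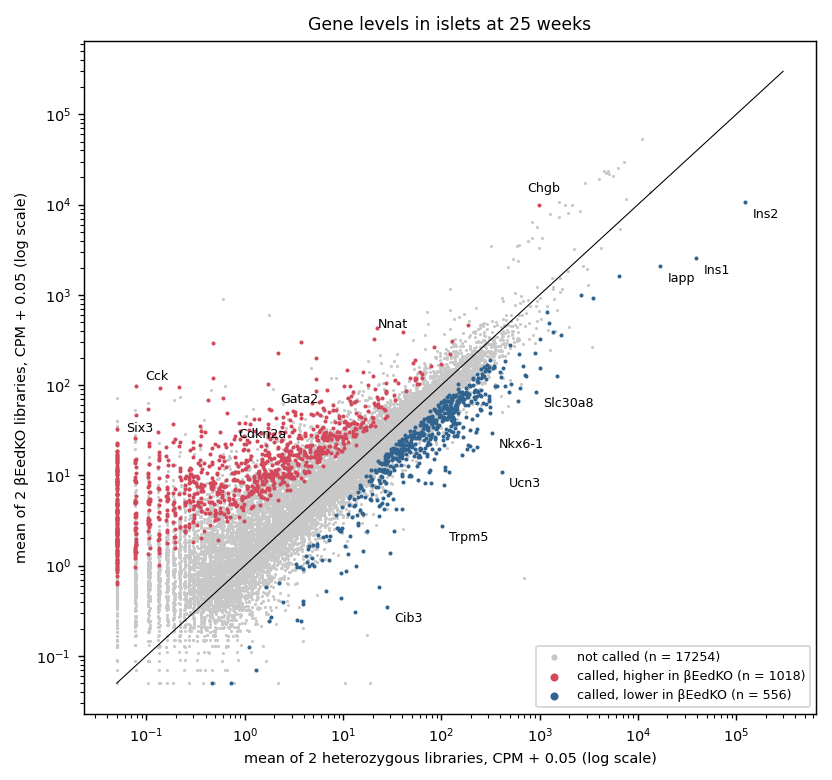
Mean level of each of 18828 genes in the 2 heterozygous (x axis) and 2 βEedKO (y axis) libraries at 25 weeks, in CPM + 0.05 on log scales, with the line of equal level. The 1018 genes called higher (red) lie mostly at the left, where heterozygous levels are low, and the 556 called lower (blue) lie at the right, with Ins1, Ins2 and Iapp at the far end.

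The number of calls, and the balance of higher to lower, depended on the libraries and the scaling. With library size alone as scaling, 766 genes were called higher and 147 lower. With 1 library left out, and the lone library of its group assumed to vary like the other groups, 435 genes were called without heterozygous replicate 1 (240 higher, 195 lower), 302 without heterozygous replicate 2 (145 higher, 157 lower), 624 without βEedKO replicate 2 (456 higher, 168 lower) and 781 without βEedKO replicate 3 (464 higher, 317 lower). Without heterozygous replicate 2, more genes were thus called lower than higher. Of 97 called genes that are named here or in the closing observations, 43 kept their call whichever of the 4 libraries was left out. Among the β cell genes these were Ins1, Nkx6-1, Pax6, Ucn3, Slc30a8, Sytl4, Ero1lb, G6pc2, Trpm5, Cib3, Gjd2, Gad1, Th and Chgb. Among the genes silent or low in heterozygous islets they included Cck, Six3, Tfap2b, Slc32a1, Slc17a6, Hoxa9, Hoxb13, Hoxd8, Nkx2-1, Cnpy1, Pitx1, Gata2, Shox2, Cdkn2a, Nnat, Igf2, Mest, Hk1, Adcy5, Arrdc4 and Wif1. A further 18 lost it with any library left out, among them Isl1, Neurod1, Phf1, Kdm2b, Cdkn1c, Mcm5, Peg3, Sim1, Gc and Lum. The calls of Sox9, Fev, Cxcl12, Krt19, Anxa2, Thy1, Ptprc, Tph1, Wnt10a, Ddit3 and Eya1 were lost in some of these fits only. Every one of the 1574 called genes had both βEedKO libraries on one side of both heterozygous libraries, as had 61.8% of all genes tested. Heterozygous islets were compared with wild-type islets of the same age, and edgeR called 0 genes between them (210 at an unadjusted p under 0.05, and 3 called by DESeq2). Against wild-type islets the same βEedKO libraries gave 1692 calls (8.99%), 1112 higher (5.91%) and 580 lower (3.08%).

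The largest falls in abundance were those of the β cell hormones. Ins1 (ENSMUSG00000035804.4, chromosome 19 from 52264297 to 52265476) had 34190 and 44690 CPM in heterozygous islets and 2143 and 2999 CPM in βEedKO islets. Ins2, the other insulin gene, had 106200 and 139900 CPM against 9597 and 11770 CPM. Iapp, the amylin that is co-secreted with insulin, had 14670 and 19200 CPM against 1941 and 2226 CPM. All heterozygous values were above all βEedKO values of the same gene, by a log2 fold change of -3.94 ± 0.65 for Ins1 (adjusted p = 0.003), -3.53 ± 0.82 for Ins2 (0.0186) and -3.02 ± 0.59 for Iapp (0.00748). Reads of Ins1 and Ins2 are alike in sequence and may have been split between them in counting. As a share of all reads, 8 islet hormone genes made up 18.7% and 21.5% in heterozygous islets and 2.25% and 5.27% in βEedKO islets. The call of Ins2 was lost without heterozygous replicate 1 (adjusted p = 0.0816), without heterozygous replicate 2 (0.134) and without βEedKO replicate 2 (0.0815), while its log2 fold change stayed between -3.76 and -3.32. That of Iapp was lost without heterozygous replicate 2 or βEedKO replicate 2 (adjusted p up to 0.0694). In the edgeR fit of the 7 libraries of 25 weeks Ins2 was not called (log2 fold change -3.525, adjusted p = 0.149). Nor was it in that of the 4 compared libraries (-3.522, adjusted p = 0.474). Iapp lost its call in both of these fits, and Ins1 in that of the 4 libraries. In whole islets, fewer cells of a type and less RNA per cell cannot be told apart.

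The hormones of the other islet cells were not called in the main edgeR fit. Gcg, glucagon of α cells, had 9822 and 5237 CPM in heterozygous and 11900 and 11350 CPM in βEedKO islets (log2 fold change 0.63 ± 0.55, adjusted p = 0.536). Sst, somatostatin of δ cells, had 1114 and 758 CPM against 1170 and 1302 CPM (adjusted p = 0.576). Ppy, pancreatic polypeptide, had 1212 and 746 CPM against 2241 and 4321 CPM (1.75 ± 0.53, adjusted p = 0.0611). For these genes both βEedKO values were above both heterozygous values, but the differences did not pass the test. Ppy was called by DESeq2 (adjusted p = 0.00539), and by edgeR in an alternative fit with the acinar marker level as a covariate. Pyy, peptide YY, had 493 and 340 against 617 and 1253 CPM (adjusted p = 0.109, and 0.0405 by DESeq2). Ghrl, ghrelin, had 3.87 and 0.117 against 4.03 and 11.5 CPM (adjusted p = 0.335), and edgeR called it in an alternative fit with a replicate block. For Pyy and Ghrl, too, both βEedKO values were above both heterozygous values.

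Of 8 mature β cell genes 7 were called lower in βEedKO islets, beside 2.95% of all genes tested. The list is taken from the study, which reports lower levels of some of its members in βEedKO cells. It is therefore not independent evidence of its direction. The sum of the list was 1564 and 1810 CPM in heterozygous and 290.6 and 411 CPM in βEedKO islets, with a median log2 fold change of -1.75 over the list against 0.09 over all genes tested. Ucn3 fell furthest, from 352 and 474 CPM to 11.4 and 10.1 CPM (-5.26 ± 0.37, adjusted p = 3.35e-05). Mafa, an activator of insulin transcription in mature β cells, fell from 116 and 96.4 CPM to 5.25 and 10.3 CPM (-3.75 ± 0.76, adjusted p = 0.00891). Nkx6-1, which holds β cells apart from other islet cells, fell from 272 and 379 CPM to 22.3 and 35.9 CPM (-3.48 ± 0.56, adjusted p = 0.00257). The falls of the other transcription factors were smaller: Pax6 went from 347 and 357 to 76.8 and 118 CPM (-1.85, adjusted p = 0.00112), and Pdx1 from 82.0 and 102 to 24.6 and 34.0 CPM (-1.65, adjusted p = 0.00985). Isl1 went from 134 and 144 to 48.5 and 54.0 CPM (-1.44, adjusted p = 0.0361) and Neurod1 from 165 and 148 to 54.4 and 81.7 CPM (-1.20, adjusted p = 0.0481). Nkx2-2 was at 95.6 and 110 against 47.3 and 67.4 CPM and was not called in the main fit (-0.84 ± 0.42, adjusted p = 0.243). It was called lower by edgeR in the fit of the 7 libraries of 25 weeks. The call of Mafa was lost without βEedKO replicate 2 (adjusted p up to 0.0916), and that of Pdx1 without βEedKO replicate 2 or heterozygous replicate 2 (up to 0.0945).

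**Figure D2:**
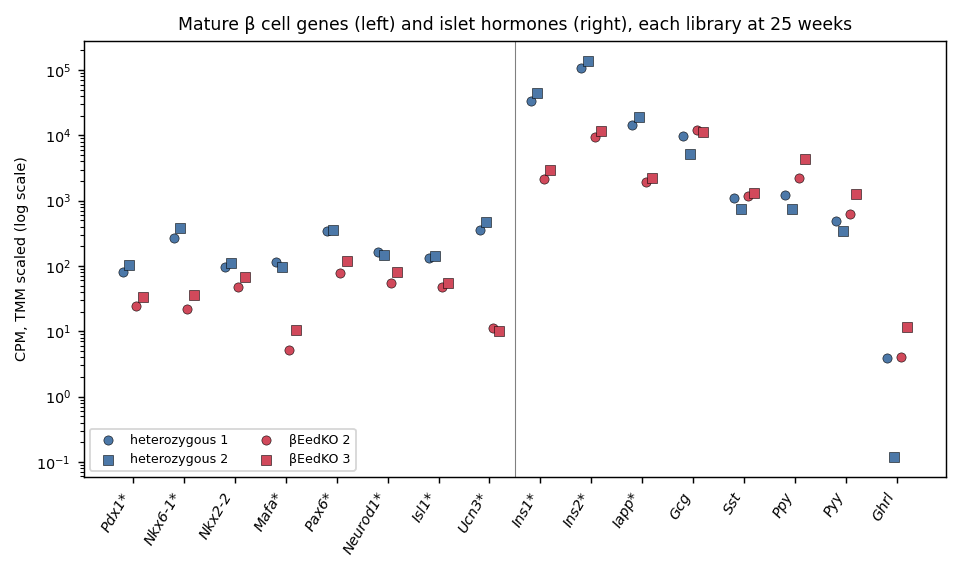
Level of 8 mature β cell genes (left of the line) and 8 islet hormones (right) in each library at 25 weeks, in CPM on a log scale, with heterozygous replicates in blue and βEedKO replicates in red; stars mark genes called by edgeR. The βEedKO points lie below the heterozygous points for Ins1, Ins2, Iapp and the 8 genes on the left, and not for Gcg, Sst, Ppy, Pyy and Ghrl.

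Genes that make, pack and release insulin moved in both directions. Of 20 genes of prohormone processing and the secretory granule, 8 fell and 1 rose, beside 2.95% and 5.41% of all genes tested. Slc30a8, the zinc transporter of the insulin granule, fell from 860 and 962 CPM to 66.5 and 100 CPM (-3.45 ± 0.33, adjusted p = 8.33e-05). Ero1lb, an oxidase that forms disulfide bonds in the endoplasmic reticulum, fell from 1652 and 1641 to 479 and 238 CPM (-2.20 ± 0.33, adjusted p = 0.00175). Sytl4, granuphilin, which docks granules at the membrane, fell from 257 and 232 to 68.6 and 86 CPM (-1.66 ± 0.19, adjusted p = 0.000283). The gene that rose was Chgb (ENSMUSG00000027350.8, chromosome 2 from 132781278 to 132795079), which encodes chromogranin B, an acidic protein of granule cores. It went from 946 and 1003 CPM to 7894 and 11930 CPM (3.35 ± 0.36, adjusted p = 0.000158), the highest level in βEedKO islets of any gene called higher.

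Glucose sensing and excitability genes also fell more often than they rose, 7 of 18 against 1 of 18, with a median log2 fold change of -1.14. Among all genes tested, 2.95% were called lower and 5.41% higher. Trpm5, a calcium-activated cation channel, went from 90.0 and 112 CPM to 1.83 and 3.51 CPM (-5.21 ± 0.44, adjusted p = 5.32e-05). Cib3, a calcium-binding protein, went from 19.7 and 35.6 to 0.304 and 0.283 CPM (-6.53 ± 0.54, adjusted p = 4.73e-05), the largest fall of all genes named by the rule of size. G6pc2, an islet glucose-6-phosphatase subunit, went from 1251 and 1763 to 98.4 and 151 CPM (-3.59 ± 0.45, adjusted p = 0.000555). Adcy5, an adenylate cyclase, was the gene of this list that rose, from 2.40 and 2.86 to 21.5 and 22.8 CPM (3.07 ± 0.51, adjusted p = 0.00302).

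The disallowed genes went the other way. All 19 members passed the filter, 7 were called higher and none lower, beside 5.41% and 2.95% of all genes tested. In 18 both βEedKO values were above both heterozygous values, as they were in 33.9% of the tested genes of the whole table. The list had a median log2 fold change of 2.43. Hk1, a hexokinase of higher glucose affinity than glucokinase, rose from 6.54 and 5.08 CPM to 41.7 and 51.9 CPM (3.01 ± 0.36, adjusted p = 0.000452). Oat, a mitochondrial enzyme of ornithine breakdown, rose from 8.34 and 8.58 to 46.3 and 60.3 CPM (2.65 ± 0.48, adjusted p = 0.00464). Cxcl12, a chemokine, rose from 5.94 and 3.79 to 41.4 and 23.2 CPM (2.73 ± 0.61, adjusted p = 0.0151). Ldha, lactate dehydrogenase A and the best known member, had 19 and 12.5 CPM against 54.7 and 116 CPM and was not called (adjusted p = 0.219). It was named here after its value was seen.

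Genes of the dedifferentiation and progenitor list, drawn in part from the study, rose in 5 of 13 tested members of 14, beside 5.41% of all genes tested. Cck (ENSMUSG00000032532.6, chromosome 9 from 121489824 to 121495694) had 0 and 0.0583 CPM in heterozygous islets, which is 1 read in all, and 73.7 and 124 CPM in βEedKO islets. The ratio of reads was 3780, with a 95% exact interval from 678 to 149000 that covers counting error only (adjusted p = 0.00258). Sox9, a factor of pancreatic progenitors and ducts, rose from 0.981 and 1.57 CPM to 21.1 and 26.9 CPM (4.23 ± 0.73, adjusted p = 0.00384). The study, without showing the data, reported that Sox9 and Ngn3 (Neurog3) were not reactivated in βEedKO islets. Fev, a factor of endocrine precursors and serotonin neurons, rose from 2.23 and 2.33 to 28.4 and 19.3 CPM (3.38 ± 0.73, adjusted p = 0.0129). The call of Sox9 was lost without heterozygous replicate 1 or 2, and that of Fev without either of these or βEedKO replicate 2. Of the best known progenitor genes, Neurog3 and Aldh1a3 were not called, with 2.23 and 2.62 against 2.13 and 0.484 CPM for Neurog3 and 2.40 and 17.6 against 13 and 28.2 CPM for Aldh1a3. Both were named after their values were seen.

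Hox genes, which set position along the body axis in embryos and are silent in adult islets, rose together in βEedKO islets. The sum of all 39 was 5.94 and 3.44 CPM in heterozygous islets and 248 and 300 CPM in βEedKO islets. Of the 39, 36 passed the filter on low counts and 27 were called higher, beside 5.41% of all genes tested. In 37 both βEedKO values were above both heterozygous values, as in 33.9% of all genes tested. Hoxb1 had 0 reads in all 4 libraries. Genes of a cluster that pass the filter only through their βEedKO reads had to differ, so the count is a description. Hoxa9 (ENSMUSG00000038227.15, chromosome 6 from 52223100 to 52231089) had 0 reads in heterozygous islets and 16.7 and 20.5 CPM in βEedKO islets, at least 227-fold higher (adjusted p = 0.00255). Hoxb13 had 0 reads and 17.2 and 19.5 CPM, at least 221-fold higher (adjusted p = 0.0013). Hoxd8, the highest Hox gene in both groups, rose from 0.926 and 0.525 to 22.8 and 28.3 CPM (5.12 ± 0.65, adjusted p = 0.000565).

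All 4 Hox clusters took part, with 6 of 11 genes called in Hoxa, 7 of 10 in Hoxb, 7 of 9 in Hoxc and 7 of 9 in Hoxd. Along the clusters the calls were unequal in number. Paralog groups 9 to 13, which specify posterior positions, had 14 of 16 genes called, and their sum went from 0.654 and 0.175 CPM to 133 and 162 CPM. Groups 4 to 8 had 12 of 15 called, and went from 3.81 and 2.28 to 104 and 123 CPM. Groups 1 to 3, which specify anterior positions, had 5 of 8 genes tested and 1 called, Hoxd3, while all genes of the other groups were tested. Their sum went from 1.47 and 0.992 to 10.2 and 14.7 CPM. This division was made after the values were seen and was not tested. Among all genes tested, 5.41% were called higher. In the 2 heterozygous libraries together, groups 9 to 13 had 15 reads, groups 4 to 8 had 109 and groups 1 to 3 had 44. Genes that pass the filter only through their βEedKO reads had to differ, so the counts by cluster and by group are a description.

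**Figure D3:**
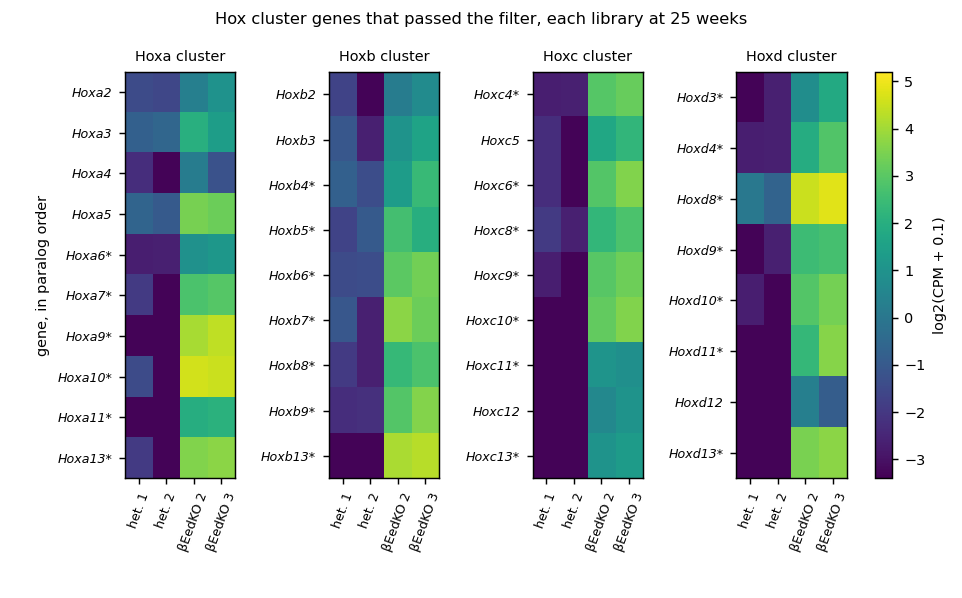
Level of each of the 36 Hox genes that passed the filter on low counts in the 4 libraries at 25 weeks, as log2(CPM + 0.1), with 1 panel for each cluster and genes in paralog order; stars mark genes called by edgeR. Both βEedKO columns are lighter than both heterozygous columns for all 36 genes, and in βEedKO islets the topmost genes of Hoxa, Hoxb and Hoxd are darker than most genes below them.

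Transcription factors of other lineages also rose in βEedKO islets. Of 97 such genes 84 were tested, 58 were called higher and 2 lower. Of the 58, 27 had 0 heterozygous reads and passed the filter only through other groups, so they had to differ and the count is a description, beside 5.41% of all genes called higher. The sum of the list went from 106 and 96.8 CPM to 698 and 876 CPM. Of the 97 genes 62 had a start site in chromatin state M and 27 in state L of wild-type islets, both described further on. Six3 (ENSMUSG00000038805.10, chromosome 17 from 85613608 to 85629302), a factor of forebrain and eye, had 0 reads in heterozygous islets and 35.5 and 30.3 CPM in βEedKO islets, at least 380-fold higher (adjusted p = 0.000697). Gata2, a factor of blood and neuronal lineages, had the smallest p of the list and rose from 3.43 and 2.92 to 41.5 and 50.8 CPM (3.86 ± 0.35, adjusted p = 5.61e-05). Shox2, a factor of limb and heart pacemaker development, rose from 0.708 and 0.817 to 13.2 and 13.8 CPM (4.14 ± 0.46, adjusted p = 0.000209). Pitx1, a factor of hindlimb and pituitary, had 1 read in heterozygous islets and 21.2 and 31.0 CPM in βEedKO islets, a ratio of reads of 981 with an interval from 176 to 38800 (adjusted p = 0.000209). Both members that fell were expressed at moderate levels in heterozygous islets. Eya1 went from 23.4 and 23.0 to 7.30 and 10.2 CPM (-1.40 ± 0.31, adjusted p = 0.015), and Sim1 from 14.3 and 17.6 to 5.86 and 7.75 CPM (-1.22 ± 0.36, adjusted p = 0.0499).

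By the rule of size, the 12 largest rises included Six3, Tfap2b, Slc32a1, Sim2, Cck, Hoxa9, Hoxb13, Pax1, Cnpy1, Tph1 and Nkx2-1. All but Cck had 0 heterozygous reads and rose at least 188-fold (Nkx2-1) to at least 380-fold (Six3). In βEedKO replicates 2 and 3, Tfap2b, a neural crest factor, had 25.7 and 19.6 CPM (adjusted p = 0.0024), and Sim2, a factor of the ventral brain, 18.3 and 24.8 CPM (adjusted p = 0.014). Pax1, a factor of the vertebral column, had 11.0 and 23.0 CPM (adjusted p = 0.0046), and Nkx2-1, a factor of lung and thyroid, 13.7 and 17 CPM (adjusted p = 0.00397). Cnpy1 had 18.1 and 15.7 CPM (adjusted p = 0.00142). Of the 12 genes 10 had a start site in state M, and Cnpy1 and Tph1 had theirs in state N.

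Transporters and enzymes of neurotransmitters moved in both directions. Of 22 genes 19 were tested, 7 rose and 2 fell, beside 5.41% and 2.95% of all genes tested. Of the 7, 4 had 0 heterozygous reads and passed the filter only through other groups. These 4 had to differ, so the count is a description. Slc32a1 (ENSMUSG00000037771.11, chromosome 2 from 158610767 to 158615748) had 0 reads in heterozygous islets and 24.0 and 20.1 CPM in βEedKO islets, at least 254-fold higher (adjusted p = 0.00112). Slc17a6, the vesicular glutamate transporter VGLUT2, had 2 reads in heterozygous islets and 25.3 and 19.8 CPM in βEedKO islets, a ratio of 385 with an interval from 106 to 3190 (adjusted p = 0.00141). Slc6a5, the neuronal glycine transporter, rose from 0.218 and 0.0583 to 15.7 and 59.1 CPM (7.99 ± 1.37, adjusted p = 0.00363). Tph1, which starts serotonin synthesis, had 0 reads and 6.85 and 24.9 CPM, at least 221-fold higher (adjusted p = 0.0273). The genes that fell are both expressed in normal islets. Gad1, which makes GABA from glutamate, went from 260 and 156 to 14.9 and 23.5 CPM (-3.44 ± 0.31, adjusted p = 5.61e-05), and Th, which starts catecholamine synthesis, from 47.1 and 48.2 to 11.7 and 8.52 CPM (-2.24 ± 0.37, adjusted p = 0.00317). Gad2, the other GABA-making enzyme, named after its value was seen, rose from 0.381 and 0.117 to 13.3 and 18.6 CPM (adjusted p = 0.00372).

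Of 47 Wnt, BMP and hedgehog ligands and antagonists, which carry signals between cells, 38 were tested, 7 rose and 1 fell, together 21.1% of those tested against 8.36% of all genes. In 35 of the 47 both βEedKO values were above both heterozygous values, as in 33.9% of all genes tested. Wif1, a secreted Wnt inhibitor, went from 1 read in heterozygous islets to 2.89 and 2.91 CPM (a ratio of 103, interval 18.1 to 4100, adjusted p = 0.00175). Wnt10a had 0 reads and then 3.20 and 11.2 CPM, at least 99.9-fold higher (adjusted p = 0.0113), and Wnt9a rose from 0.817 and 0.583 to 3.35 and 6.26 CPM (adjusted p = 0.00487). Wnt4, the Wnt ligand that islets normally express, was the gene that fell, from 222 and 176 to 52.7 and 80.4 CPM (-1.58 ± 0.27, adjusted p = 0.00335).

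Among 7 cyclin-dependent kinase inhibitors 2 rose, beside 5.41% of all genes tested. Cdkn2a (ENSMUSG00000044303.6, chromosome 4 from 89274471 to 89294653), whose products p16 and p19 block the cell cycle and which is a classic PRC2 target, rose from 0.817 and 0.525 to 19.4 and 25.6 CPM (5.05 ± 0.50, adjusted p = 0.00011). Cdkn1c, p57, rose from 1.96 and 0.875 to 6.32 and 5.13 CPM (2.00 ± 0.53, adjusted p = 0.034). Of 20 proliferation genes 1 was called, Mcm5, a subunit of the replicative helicase, from 1.47 and 2.04 to 6.01 and 6.01 CPM (1.77 ± 0.50, adjusted p = 0.0437). The list had a median log2 fold change of 0.66, and in 6 of the 20 genes both βEedKO values were above both heterozygous values, against 33.9% of all genes tested. Its sum, of which Ccnd2 is the largest part, was 663 and 763 CPM in heterozygous and 342 and 518 CPM in βEedKO islets.

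Imprinted genes, expressed from 1 parental copy, moved in both directions, with 6 of 17 tested members higher and 1 lower. Among all genes tested, 5.41% were called higher and 2.95% lower. Nnat (ENSMUSG00000067786.16, chromosome 2 from 157560078 to 157562522), neuronatin, rose from 26.5 and 15.1 to 391 and 255 CPM (3.96 ± 0.31, adjusted p = 4.45e-05). Igf2, a fetal growth factor, rose from 14.5 and 8.69 to 91.8 and 102 CPM (3.06 ± 0.32, adjusted p = 0.000145), and Mest from 6.37 and 4.03 to 43.9 and 127 CPM (4.04 ± 0.54, adjusted p = 0.000848). Peg3, a zinc finger gene that is abundant in islets, fell from 3592 and 3473 to 617 and 1225 CPM (-1.94 ± 0.53, adjusted p = 0.0377).

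Of 18 genes of the unfolded protein response 1 was called, Ddit3, the factor CHOP, which fell from 200 and 193 to 15.2 and 47.7 CPM (-2.64 ± 0.66, adjusted p = 0.0276). Of 20 genes of glycolysis and glucose response, Arrdc4, an arrestin induced by glucose, rose from 10.4 and 13.5 to 77.3 and 75.7 CPM (2.67 ± 0.39, adjusted p = 0.00143), and Pfkfb2, a regulator of glycolysis, fell from 137 and 129 to 33.0 and 50.9 CPM (-1.66 ± 0.33, adjusted p = 0.00788). None of 20 interferon-induced genes was called at this age in the main edgeR fit. Zbp1, a sensor of nucleic acids, had the smallest p of them, at 0.109 and 0.233 against 2.13 and 2.26 CPM (adjusted p = 0.121). Zbp1 was called by DESeq2, and by edgeR in fits of the 7 libraries of 25 weeks and of the 4 compared libraries.

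The 12 largest falls held Cib3, Ucn3, Trpm5 and Ins1, described above, and 8 other genes. Cyp4f39, a cytochrome P450, went from 14.0 and 12.2 to 0.152 and 0.363 CPM (-5.54 ± 0.93, adjusted p = 0.00335), and Otoa, an inner ear protein, from 12.9 and 47.4 to 0.913 and 1.78 CPM (-4.44 ± 0.71, adjusted p = 0.00255). T2 went from 26.4 and 20.1 to 0.533 and 0.525 CPM (-5.44 ± 0.58, adjusted p = 0.000158). Gm44744, Gm44850, Gm4791, Cdx4 and Gm18310 completed the group, at 0.763 to 14.2 CPM in heterozygous and 0 to 0.404 CPM in βEedKO islets. Each of these 5 lost its call in at least 3 of the 4 fits that left out 1 library.

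Genes called higher and lower differed in the chromatin of their start sites in wild-type islets, with overlap. The deposited segmentation gives each bin of 200 bp of the autosomes a letter from A to X; A marks active start sites, L and M are bivalent and N and O are Polycomb states. The states of 951 genes called higher and 518 called lower were known. Of the 951, 261 (27.4%) started in state M and 405 (42.6%) in state L, against 5.41% and 15.1% of the 16137 tested genes with a state. Of the 518 genes called lower, 280 (54.1%) started in state A, against 39.2% of those tested. State M held 4 genes called lower (0.772%) and state L 54 (10.4%). Tested genes of state M had a median of 0.42 CPM in heterozygous islets, which leaves little room for a fall. For tested genes of state A this median was 35.1 CPM. Genes silent in heterozygous islets passed the filter only through other groups, and 873 of 1515 counted state M genes passed it. The difference in states between genes called higher and lower is therefore partly set by starting level and filter. The active states A, B and C held 125 genes called higher (13.1%), of which 80 were in state B beside 94 called lower. These shares describe the called genes and were not tested.

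The shift in state M could be seen without calls or filter. Of all 1515 counted genes that started in state M, 21.7% and 18.0% reached 1 CPM in heterozygous replicates 1 and 2, and 47.5% and 49.1% in βEedKO replicates 2 and 3. For the 2906 genes in state L the shares were 58.0% and 56.5% against 73.8% and 75.7%. For the 6545 genes in state A they were 94.3% and 94.1% against 93.8% and 94.3%. In state N 9.77% and 8.01% of 2098 genes reached 1 CPM in heterozygous and 17.6% and 17.2% in βEedKO islets. Both libraries of a group were close in each of these states, βEedKO replicate 2 with its acinar RNA included.

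**Figure D4:**
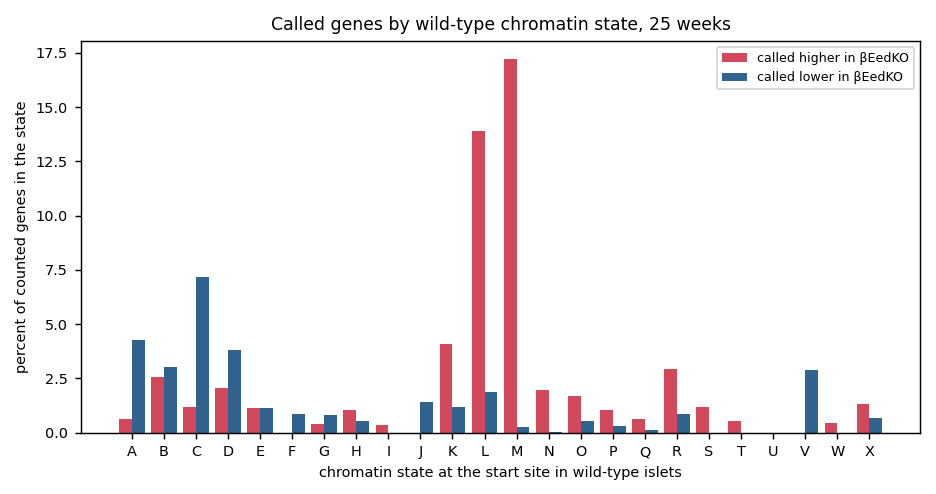
Percent of the counted genes of each chromatin state that were called higher (red) or lower (blue) in βEedKO islets at 25 weeks, by the state letter at the start site in wild-type islets. States L and M have the tallest red bars, 13.9% and 17.2%, and the tallest blue bars among the states with over 1000 genes are those of A and B, 4.28% and 3%.

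Markers of cells other than β cells did not move as 1 group. Acinar markers were high in 1 of the 2 βEedKO libraries and none of the 15 was called by edgeR, Ptf1a being called by DESeq2 (adjusted p = 0.0499). Ptf1a, an acinar regulator, had the smallest p, at 0.381 and 1.57 CPM in heterozygous islets and 15.0 and 0.727 CPM in βEedKO islets, where the groups overlap (adjusted p = 0.146). The summed level of the duct markers was higher in both βEedKO libraries, at 534 and 492 CPM against 976 and 1360 CPM. Of the 11 members 7 were higher in both βEedKO libraries and 1 was lower in both, beside 33.9% and 27.9% of all genes tested. Of 11 duct markers 3 were called higher, beside 5.41% of all genes tested. These were Spp1, osteopontin (29.8 and 50.9 against 468 and 316 CPM, adjusted p = 0.0033), Krt19, a keratin (1.91 and 1.69 against 22.9 and 83.1 CPM, adjusted p = 0.00982), and Anxa2, an annexin (13.6 and 8.93 against 45.5 and 97.6 CPM, adjusted p = 0.024). The part of duct cells in the rise of Sox9 was not tested.

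Macrophage and leukocyte markers summed to 141 and 86 CPM in heterozygous and 516 and 204 CPM in βEedKO islets, with 1 of 10 called, Ptprc, the leukocyte antigen CD45 (6.86 and 4.49 against 29.4 and 30.4 CPM, adjusted p = 0.011). Stellate and fibroblast markers summed to 222 and 168 CPM against 580 and 443 CPM, with 2 of 10 called, Thy1 (1.96 and 1.87 against 33.9 and 23.8 CPM, adjusted p = 0.0187) and Lum (2.45 and 0.933 against 25.2 and 11.3 CPM, adjusted p = 0.0427). Their part in the rise of disallowed genes such as Cxcl12, and of mesenchymal transcription factors, was not tested. Among all genes tested, 5.41% were called higher. As given above, the calls of Ptprc and Thy1 were lost in some fits that left out 1 library, and that of Lum in all of them. Endothelial markers were at 589 and 587 against 552 and 446 CPM with none of 10 called in the main edgeR fit. Kdr had the smallest p (140 and 155 against 85.4 and 66.8 CPM, adjusted p = 0.118). It was called by edgeR in the fits of the 7 libraries of 25 weeks and of the 4 compared libraries. Lymphocyte, Schwann, adipocyte and blood markers had no call among 24 genes in the main edgeR fit, while DESeq2 called Sox10. With the 7 libraries of 25 weeks alone edgeR called Cd79a and Sox10, and with the 4 compared libraries alone it called Lep. Of 8 lymphocyte markers 7 were higher in both βEedKO libraries and 1, Cd79a, was lower in both, beside 33.9% and 27.9% of all genes tested. The median log2 fold change of the lymphocyte list was 4.05, and its sum was 21.3 and 18.1 against 45.0 and 21.9 CPM. Cd79a of B cells had 20 and 16.6 against 9.59 and 6.09 CPM (adjusted p = 0.11), Sox10 of Schwann cells 0.708 and 0.408 against 11.9 and 2.83 CPM (0.16), Lep of fat cells 2.07 and 1.11 against 0.0761 and 0 CPM (0.16), and Hbb-bs, a globin of blood, 15.0 and 8.17 against 92.4 and 8.64 CPM (0.346).

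Among endocrine markers, 3 of 8 α cell markers were called higher in the main edgeR fit, beside 5.41% of all genes tested. None of 5 δ and PP cell markers was called there, Ppy being called by DESeq2 and in an alternative edgeR fit as given above. Irx2 and Irx1, homeobox factors of α cells, rose from 7.14 and 5.02 to 32.6 and 34.1 CPM (2.46 ± 0.39, adjusted p = 0.00255) and from 2.07 and 1.57 to 8.29 and 12.7 CPM (2.52 ± 0.44, adjusted p = 0.00388). Gc, the vitamin D-binding protein of α cells, rose from 56.2 and 111 to 269 and 264 CPM (1.67 ± 0.42, adjusted p = 0.0277). The α cell list summed to 10410 and 5792 CPM in heterozygous and 12780 and 12120 CPM in βEedKO islets. Both Irx genes started in state L of wild-type islets.

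**Figure D5:**
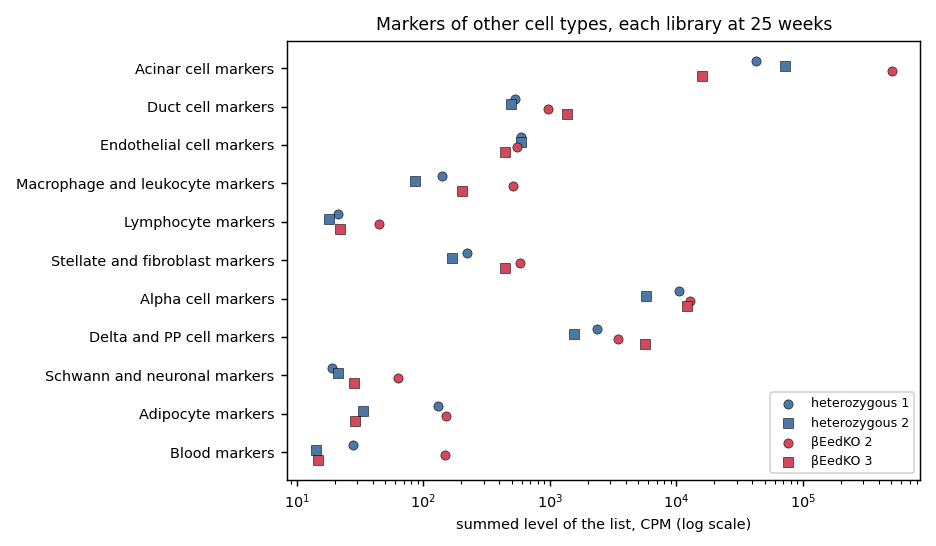
Summed level of the markers of 11 other cell types in each library at 25 weeks, in CPM on a log scale, with heterozygous replicates in blue and βEedKO replicates in red. Acinar markers reach 503800 CPM in βEedKO replicate 2 and 15870 CPM in βEedKO replicate 3, on either side of the heterozygous libraries. The sums of duct, macrophage and stellate markers are higher in both βEedKO libraries.

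The same comparison at 8 weeks, in 3 heterozygous and 3 βEedKO libraries that share none with those of 25 weeks, gave 892 calls (4.74% of those tested), 678 higher (3.6%) and 214 lower (1.14%). Of the 1018 genes called higher at 25 weeks, 931 (91.5%) had a positive log2 fold change at 8 weeks, as had 50.9% of all genes tested, and 294 were called higher there, 28.9% of the 25-week list and 43.4% of the 8-week list. Of the 556 genes called lower, 493 (88.7%) had a negative one, against 48.9% of all, and 85 were called lower at 8 weeks, 15.3% of the 25-week list and 39.7% of the 8-week list. The median log2 fold change at 8 weeks over the 25-week lists was 1.38 for genes called higher and -0.493 for genes called lower. Since the lists were chosen by their 25-week values, these medians do not compare the size of the change between the ages. Some 8-week libraries stood apart. βEedKO replicates 4 and 5 had 7802 and 8753 CPM of interferon-induced genes, against 149 to 165 CPM in the other libraries, and heterozygous replicate 2 had 2482 CPM of adipocyte markers.

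The difference between the ages passed its own test in 53 genes (0.281% of those tested), 21 of them (0.112%) more positive and 32 (0.17%) more negative at 25 weeks, and in 51 the change was the larger one at 25 weeks. By the smallest p these were Ucn3, Gjd2, Prss53, Gata2 and Cib3. Gjd2, connexin 36, which joins β cells into an electrical unit, had 216 and 246 CPM in heterozygous and 33.1 and 31.6 CPM in βEedKO islets at 25 weeks (-2.84 ± 0.22), against a log2 fold change of -0.18 at 8 weeks (adjusted p of the difference 0.00204). Prss53, a serine protease, went from 85.7 and 67.2 to 9.97 and 12.8 CPM at 25 weeks (-2.74 ± 0.25), against 0.12 at 8 weeks (0.00204). Gata2 changed by 3.86 at 25 weeks and by 0.09 at 8 weeks (0.00229). Igf2 went against this order, with a log2 fold change of 5.18 at 8 weeks and 3.06 at 25 weeks (adjusted p of the difference 0.0424). Ins1 changed by -0.18 at 8 weeks and -3.94 at 25 weeks, but this contrast of ages missed the threshold (adjusted p = 0.0663).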

How the data were processed

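Islet RNA was made into TruSeq RNA v2 libraries, a kit that does not mark strand, and sequenced in pairs. The authors aligned reads with TopHat2 2.0.13 to GRCm38 and deposited whole-number counts per gene, made with featureCounts of Subread 1.5.0-p1 on Gencode gene models, and the strand setting is not given in the sources used here. A gene and an overlapping or antisense partner can share reads. The authors also deposited a segmentation of wild-type islet chromatin (EpicSeg) with 24 state letters in bins of 200 bp over 19 autosomes. It was used as letters, and a gene took the letter at its annotated start.

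Of 47937 counted genes 47310 matched the annotation by identifier and 627 did not. All 16 bulk islet libraries in 6 groups entered 1 fit in edgeR 4.0.16 (R 4.3.3, limma 3.58.1): filterByExpr left 18828 genes, TMM gave the scaling, and the quasi-likelihood test was run for each contrast with Benjamini-Hochberg adjustment over all genes tested, a call being an adjusted p under 0.05. The fit had 10 residual degrees of freedom and a common biological coefficient of variation of 0.4241. A standard error (SE) is the log2 fold change divided by the root of its F value. For genes with 0 reads in a group, the fold is a lower bound against 3 reads over the group, and with 1 to 3 reads it is a ratio of reads with an exact 95% interval, for counting error only. On simulated counts for this comparison (18828 genes, 200 changed), 82 genes were called, 3 of them unchanged, and 0%, 44.8% and 74.2% of genes changed by a log2 fold of 1, 2 and 3 were recovered.

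Named genes were Eed, all mature β cell genes and islet hormones, the 12 largest rises and falls among called genes with a mean of at least 1 CPM in a group and no overlap, up to 3 called genes per direction in each other list (or the smallest p where none was called), and the 5 smallest p of the age difference. Others are said to be named after their values were seen. The comparison and the 30 gene lists (521 genes) were chosen with earlier results of these data known. Some items are not reported here. Alternatives were other scalings and filters, DESeq2 1.42.0, fewer libraries, a replicate block, wild-type controls and, added after seeing the data, 2 that treat acinar RNA.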

Additional observations from a re-analysis of the deposited data

Results flagged for a closer look

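For 17 named genes the difference between βEedKO and heterozygous islets was not the same at 25 and at 8 weeks, by edgeR's interaction test with Benjamini-Hochberg adjustment. Values are the log2 fold change at 25 weeks minus that at 8 weeks. The β cell genes Ucn3 (-4.00, adjusted p = 0.00204), Trpm5 (-4.01, 0.00389), Slc30a8 (-2.65, 0.0158), Gad1 (-2.38, 0.0185) and Gjd2 (-2.65, 0.00204) were further below heterozygous islets at 25 weeks. So were Cib3 (-5.22, 0.00248), T2 (-4.50, 0.0131) and Prss53 (-2.86, 0.00204). Wnt4 (-2.15, 0.0202) was lower in βEedKO islets at 25 weeks and had a positive log2 fold change of 0.58 at 8 weeks.

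Chgb (2.54, adjusted p = 0.027), Hk1 (2.43, 0.0424), Gata2 (3.77, 0.00229), Nnat (2.73, 0.00649) and Mest (4.18, 0.02) were further above heterozygous islets at 25 weeks. The same held for Miat (4.95, 0.044), a long noncoding RNA named after its value was seen. Hoxa9 (12.35, 0.0499) has no read in 25-week heterozygous islets, so its value depends on the prior count of the fit and is no bound. Igf2 (-2.11, 0.0424) was higher in βEedKO islets at both ages and more so at 8 weeks, where it had 4.04, 5.41 and 3.79 CPM in heterozygous and 188, 143 and 151 CPM in βEedKO islets.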

How the results depend on the processing

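Library size alone as scaling called 913 genes in place of 1574, and 10 in place of 53 for the difference between the ages. DESeq2 called 2696 (1720 higher, 976 lower) and 392. Leaving out acinar markers from the scaling, added after seeing the data, gave 80 for the age difference. Leaving out 1 library gave 302 to 781 calls, and 145 higher against 157 lower without heterozygous replicate 2, and 14 to 69 for the age difference. The median log2 fold change then ranged from -2.14 to -1.52 for mature β cell genes, 5.99 to 7.19 for Hox genes and 6.67 to 7.60 for transcription factors of other lineages, which had 7.19 with library size as scaling. The state M share of genes called higher went from 27.4% to 31.7% with library size as scaling. Ptf1a (-0.43) and Hbb-bs (-0.44), neither of them called, turned negative without βEedKO replicate 2, against up to 4.32 and 2.90 without another library. In the other alternatives the calls stayed within 1.5 times, at 1461 to 2279 genes. Eed was not called in any, with adjusted p from 0.0804 to 0.941. Heterozygous and βEedKO libraries of 25 weeks share only the number 2, whose deviations had a correlation of 0.00974, so the numbers are not taken to pair the samples. The replicate block gave 429 genes (207 higher, 222 lower, 315 of them shared with the 1574), 54 of 97 called and named genes lost their call, and 0 genes passed for the age difference. Of the 97, 28 to 52 lost their call when 1 library was left out. The cause of these changes was not tested.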

Other observations

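Single genes outside the lists were called as well. Those below were chosen after their values were seen, and no gene group was counted or tested. Cd74, the invariant chain of class II antigen presentation, went from 147 and 107 to 292 and 320 CPM (log2 fold change 1.27, adjusted p = 0.0181). H2-Aa went from 58.8 and 44.5 to 186 and 162 CPM (1.75, 0.0209), H2-Ab1 from 35.5 and 32.7 to 125 and 105 CPM (1.75, 0.015) and H2-Eb1 from 50.1 and 45.3 to 123 and 117 CPM (adjusted p = 0.0202). The call of Cd74, H2-Aa and H2-Eb1 was lost whichever library was left out, and H2-Ab1 kept it in 1 of 4 such fits. The leukocyte markers given in the report were also higher, and their part in this was not tested. Jchain, the joining chain of secreted antibodies, rose from 0.490 and 0.350 to 108 and 476 CPM (9.41, adjusted p = 0.0415), a call lost whichever library was left out and with the acinar covariate.

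Cartpt, which encodes the CART neuropeptide, went from 1.85 and 1.52 to 89.1 and 118 CPM (5.93, adjusted p = 5.61e-05), and Pdyn, prodynorphin, from 13.7 and 7.99 to 107 and 190 CPM (adjusted p = 0.00333). The granule protein Scg2 went from 5490 and 7449 to 1186 and 2064 CPM (-1.99, adjusted p = 0.0114), and Pcsk2, a prohormone convertase, from 2773 and 2453 to 874 and 1111 CPM (-1.40, 0.0145). The calcium pumps Atp2a2 and Atp2a3 of the endoplasmic reticulum went from 1338 and 1424 to 286 and 479 CPM (-1.85, 0.00411) and from 794 and 1011 to 187 and 272 CPM (adjusted p = 0.00668). Slc2a2, the glucose transporter GLUT2, went from 751 and 712 to 129 and 120 CPM (-2.55, 0.00973), and Mlxipl, the glucose-responsive factor ChREBP, from 527 and 691 to 48.3 and 83.2 CPM (-3.21, 0.0103). Insrr, a receptor of the insulin receptor family, went from 971 and 1042 to 149 and 162 CPM (-2.69, 0.0119). With 1 library left out in turn, the call was kept in 0 of 4 fits for Slc2a2 and Insrr, in 1 for Pcsk2, in 2 for Scg2 and Mlxipl, in 3 for Pdyn and in 4 for Cartpt.

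The trypsinogen genes Prss1 and Prss3 did not follow the acinar markers. Prss1 had 9.70 and 0.700 CPM in heterozygous and 231 and 165 CPM in βEedKO islets (adjusted p = 0.0377), and Prss3 had 11.7 and 32.7 against 611 and 241 CPM (4.26, 0.013). Both were high in βEedKO replicate 3 too, the library with the lowest acinar sum. With 1 library left out in turn, Prss1 kept its call in 0 and Prss3 in 1 of 4 fits. They belong to a family of near-identical copies, among which reads may have been split in counting.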
